A study of Mus musculus with 9 samples.

Results

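The nuclear factor I (NFI) family of transcription factors was followed in primary mouse neural stem cells after treatment with short hairpin RNAs against Phf2. Its members were taken by name, as the genes whose Ensembl identifiers map to the mouse symbols Nfia, Nfib, Nfic and Nfix. These are 4 of the 54232 genes in the count table, and all 4 were among the 17602 genes that passed the expression filter. The hairpins against Phf2 were sh900 and sh902, and the control was a non-targeting hairpin, shNT. Each of these 3 groups held 3 RNA-seq libraries, of which 1 carried no date, 1 the date 30 August and 1 the date 3 September. What the dates mark is not stated in the labels. The cells were labelled as primary neural stem cells of the brain subventricular zone and the culture text calls them embryonic. In all groups they grew on laminin with FGF at 10 ng/mL and EGF at 20 ng/mL, and RNA was taken 3 days after treatment. The labels give neither the animals' strain and age nor how the hairpins were delivered, and nothing there says whether libraries of a group came from separate cultures. The p-values below therefore rest on variation among these libraries, part of which may be technical.

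NFI proteins bind DNA as homodimers or heterodimers through a conserved amino-terminal domain, at the palindrome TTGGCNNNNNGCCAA and, more weakly, at a single TTGGC arm. They can activate or repress transcription. In the developing mouse brain Nfia and Nfib are known for the onset of gliogenesis, Nfix for the timing of progenitor differentiation and for stem cell quiescence, and Nfic for a role outside the brain, in tooth root formation. Phf2 encodes a histone demethylase of the KDM7 family.

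The members are paralogs whose reads could in principle be mixed, so their shared sequence is shown first. The stretch of 60 coding bases most alike in all 4 genes lies in exon 2, and the part of the protein encoded there belongs to the DNA-binding domain. Capitals mark the 12 positions that are not the same in all 4 genes; the other 48 are identical. The sequences are from GRCm38, read 5′ to 3′ on the coding strand of each gene.
Nfia, chr4:97783134-97783193, plus strand: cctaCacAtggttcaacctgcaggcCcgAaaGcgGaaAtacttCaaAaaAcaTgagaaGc
Nfib, chr4:82498658-82498717, minus strand: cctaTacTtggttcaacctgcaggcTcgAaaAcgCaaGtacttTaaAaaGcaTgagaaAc
Nfic, chr10:81420687-81420746, minus strand: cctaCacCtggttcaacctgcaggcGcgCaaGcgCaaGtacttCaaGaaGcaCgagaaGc
Nfix, chr8:84772204-84772263, minus strand: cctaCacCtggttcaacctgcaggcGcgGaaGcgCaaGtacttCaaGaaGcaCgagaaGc
Over all annotated transcripts the longest run of identical bases was between 18 and 32 for the 6 pairs of genes, with the 32-base run shared by Nfic and Nfix. None of the 50-base windows of any member's exons occurred in another member. Among 25-base windows, Nfic and Nfix each had 12 that occurred in another member, and Nfia and Nfib had 1 each. Sequence shared between members is thus confined to short runs, by these window sizes.

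Nfia (ENSMUSG00000028565) lies on the plus strand of chromosome 4 at 97772734 to 98118874, with 8 annotated transcripts. Nfib (ENSMUSG00000008575) lies on the same chromosome at 82290173 to 82705750, on the minus strand, with 12 transcripts. Nfic (ENSMUSG00000055053) lies on the minus strand of chromosome 10 at 81396186 to 81455635, with 7 transcripts. Nfix (ENSMUSG00000001911) lies on the minus strand of chromosome 8 at 84699876 to 84800344, with 8 transcripts. Genes annotated on the other strand share few exon bases with them. Nfix shares 4 bases with Lyl1 and 137 with G430095P16Rik, neither of which exceeded 0.697 CPM (reads per unit of library size, scaled for composition). Nfic shares 72 bases with Gm16104, which had at most 1 read in a library. Nfia shares 4 bases with E130114P18Rik at 23.1 to 52 CPM. Since strand is not stated to have been kept, reads in those bases cannot be assigned to a strand.

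Phf2, measured first as a check of the labels, did not overlap between the 6 hairpin and the 3 control libraries, a pattern in the lower direction that 3.03% of tested genes share. It was at 19.81, 14.93 and 25.49 CPM with sh900 (undated, 30 August and 3 September), at 25.01, 16.96 and 28.09 CPM with sh902, and at 56.34, 52.83 and 48.65 CPM with shNT. Between 28.3% and 57.7% of the same-label control level remained. Library totals ran from 23212472 to 32392496 estimated counts. Summed levels of neural stem cell markers (Nes, Sox2, Vim, Pax6, Fabp7, Slc1a3 and Prom1) were 7456 to 13100 CPM with sh900, 6268 to 9551 CPM with sh902 and 5626 to 6822 CPM with shNT. In the edgeR fit with date label, Nes and Vim were called higher and Pax6 and Prom1 lower for the mean of both hairpins. These are 2 higher and 2 lower of 7 genes, where 6.08% and 5.59% of all tested genes were called. Of the 7 estimates 4 were negative, and the median log2 fold change was -0.34. Without date label 0 were called and the median was -0.36. The 6 microglial markers summed to 0.577 to 3.35 CPM over all libraries, with 1 to 4 of them at 0, and the 4 endothelial markers to 1.80 to 7.97 CPM. Genes of astrocytes and of cycling cells differed widely within the control group: 6 astrocyte markers summed to 284.8 to 4506 CPM and 10 proliferation genes to 240.9 to 2875 CPM in the 3 shNT libraries.

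The first question was whether the NFI genes differ when Phf2 is lowered. Averaged over both hairpins, Nfix fell by 0.83 and Nfib fell by 0.49 on the log2 scale when the date label was a term of the model, which is called the replicate block here. Neither passed the threshold, an adjusted p of 0.05, in edgeR without that term, whereas DESeq2 called both without it (Nfib -0.498, adjusted p = 0.0345; Nfix -0.825, adjusted p = 0.0207). In the 6 dated libraries alone, with the block, neither was called in edgeR, at -0.467 for Nfib (adjusted p = 0.379) and -0.768 for Nfix (adjusted p = 0.238). Nfia, at -0.39, stopped just short of the threshold with the block, and the estimate for Nfic was positive, at 0.27. In each of the 6 hairpin libraries Nfia, Nfib and Nfix stood below the shNT library of the same date label. The same held for 12% of all tested genes, so this count alone does not set the family apart.

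Nfix, the member linked to quiescence of neural stem cells, had 176.7, 105.3 and 155.4 CPM with sh900 in the undated, 30 August and 3 September libraries, 82.61, 108.5 and 121.1 CPM with sh902, and 244.9, 236.5 and 173 CPM with shNT. All 3 sh902 libraries lay below all 3 controls, whereas the undated sh900 library was slightly above the lowest control. Against the same-label control, sh900 left 72.2%, 44.5% and 89.8% of Nfix and sh902 left 33.7%, 45.9% and 70%. Averaged over the hairpins, the log2 fold change was -0.82 ± 0.20 (SE, edgeR adjusted p = 0.199) without the block and -0.83 ± 0.21 (SE, edgeR adjusted p = 0.0404) with it, with a blocked 95% interval of -1.30 to -0.35. An exact two-sided permutation test of log2 CPM, 6 hairpin against 3 shNT libraries, gave p = 0.0357 over 84 splits, where 0.0119 is the smallest possible. That test ignores the date label, uses the same libraries and is not adjusted over genes. Compared with Phf2, the same-label loss was smallest at 3 September for both genes. With sh902 it was largest on 30 August for Phf2 but in the undated library for Nfix. By group mean Phf2 was lower with sh900 (20.08 CPM) than with sh902 (23.35 CPM). Mean Nfix was lower with sh902 (104.1 CPM) than with sh900 (145.8 CPM), and the hairpin groups overlapped in both genes. A link between the 2 genes was not tested. The blocked call was kept only without the 3 September shNT library (-1.07, adjusted p = 0.0429); without each of the other 8 libraries in turn, adjusted p ran up to 0.224 and the change between -0.935 and -0.66.

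Nfib, which acts with Nfia in glial differentiation, had 544.8, 691 and 513 CPM with sh900, 412.9, 379.9 and 393 CPM with sh902, and 704.7, 739.5 and 588.8 CPM with shNT. The 3 sh902 values lay close together and below all other libraries, while the sh900 values overlapped the controls. Of the same-label control, sh900 left 77.3%, 93.4% and 87.1% and sh902 left 58.6%, 51.4% and 66.8%. Averaged over the hairpins, the log2 fold change was -0.50 ± 0.14 (SE, edgeR adjusted p = 0.22) without the block and -0.49 ± 0.12 (SE, edgeR adjusted p = 0.0409) with it. The exact permutation test, which ignores the date label and is not adjusted over genes, gave p = 0.0476. The blocked call was kept only without the 30 August sh902 library (-0.42, adjusted p = 0.0454), and adjusted p reached 0.179 without the undated shNT library.

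Nfia, the member required early for astrocyte formation, had 472.4, 308 and 511.2 CPM with sh900, 394.5, 291.8 and 461.1 CPM with sh902, and 571.2, 419.1 and 585 CPM with shNT. The 30 August library was the lowest in all 3 groups, and the groups overlapped. Within a date label the order was the same each time, sh902 below sh900 below shNT. The hairpins left 82.7%, 73.5% and 87.4% (sh900) and 69.1%, 69.6% and 78.8% (sh902) of the same-label control. The mean log2 fold change was -0.37 ± 0.22 (SE, edgeR adjusted p = 0.408) without the block and -0.39 ± 0.11 (SE, edgeR adjusted p = 0.0544) with it, and the exact permutation p was 0.119. In the blocked fit the 95% interval ran from -0.63 to -0.14.

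Nfic, whose best known role lies outside the brain, had 36.76, 26.26 and 18.23 CPM with sh900, 23.21, 20.85 and 21.53 CPM with sh902, and 21.37, 26.11 and 13.93 CPM with shNT, from 365 to 1143 counts a library. Of the 6 hairpin libraries 5 stood above the same-label control and the 30 August sh902 library stood below it. The mean log2 fold change was 0.25 ± 0.26 (SE, edgeR adjusted p = 0.635) without the block and 0.27 ± 0.20 (SE, edgeR adjusted p = 0.403) with it. The blocked interval of -0.18 to 0.72 excludes a mean fall of the size estimated for Nfib or Nfix, but not a small one. The exact permutation p was 0.381. Without the 3 September shNT library the mean was 0.033 and without the 30 August shNT library 0.472, both without the block.

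Over all genes edgeR called 0 genes for this mean without the block, or 0% of those tested, although 2809 had an unadjusted p under 0.05; DESeq2 called 755 on the same design. With the block 11.7% of genes were called, made up of 6.08% higher and 5.59% lower. The 2 members called, of 4, are read against that share. Markers of other cell types also moved in the blocked fit of the mean. Called lower were 4 of 5 measured neuronal markers (median log2 fold change -1.59), 3 of 6 of oligodendrocyte precursors (median -1.09) and 2 of 2 measured myelin markers (median -2.10). So were 1 of 5 measured astrocyte markers (median -0.81), 1 of 5 mesenchymal markers (median 0.18) and the 1 measured endothelial marker (-1.21). In the other direction, 1 of 2 measured ependymal markers was called higher (median 1.55). The 1 measured microglial marker was not called (0.92). Without the block 0 were called in each list. Neuronal markers summed to 610.5 to 1079 CPM with sh900, 466.5 to 852.6 CPM with sh902 and 681.6 to 1895 CPM with shNT. Those of oligodendrocyte precursors summed to 2288 to 3093 CPM with sh900, 1268 to 2007 CPM with sh902 and 1949 to 2984 CPM with shNT, and the myelin markers to 1.743 to 26.96, 3.546 to 16.1 and 4.114 to 127.7 CPM in the same order. Their part in the NFI values was not tested. In bulk libraries fewer cells that express a gene and less of its RNA per cell cannot be told apart.

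**Figure D1:**
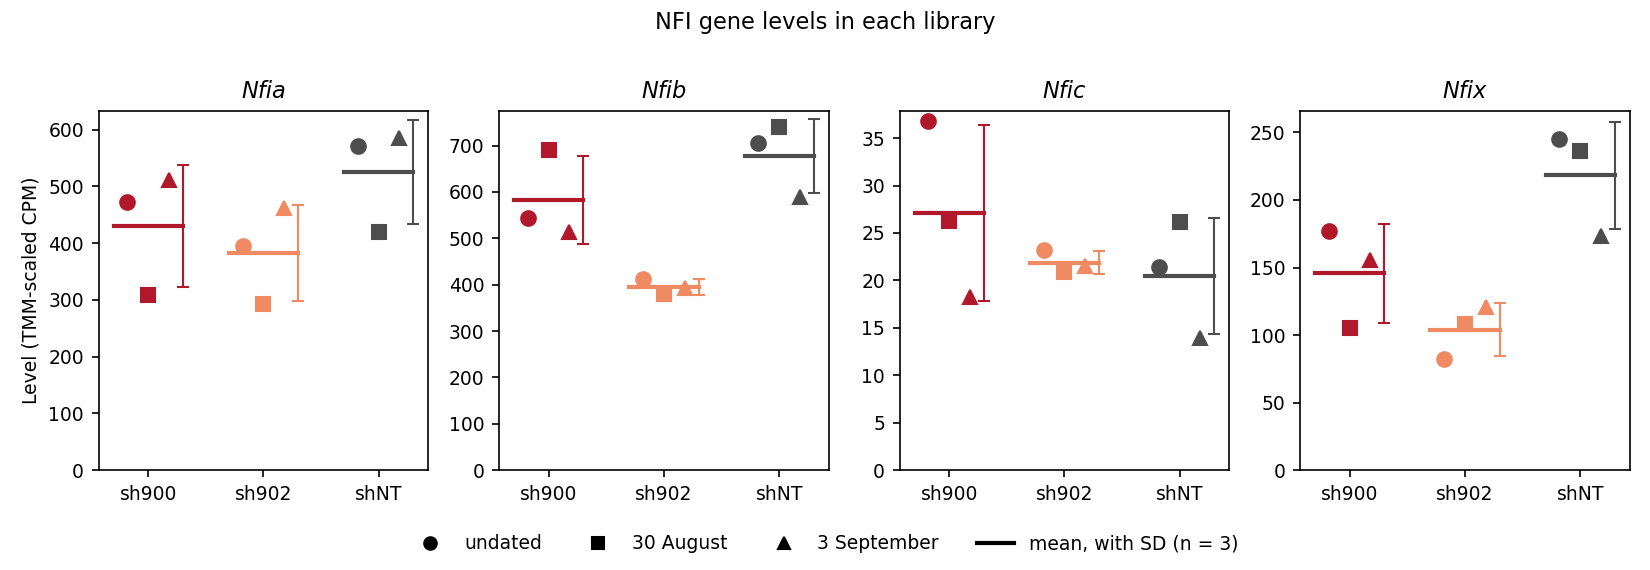
Level of each NFI gene in each library, in TMM-scaled CPM, by group; symbols give the date label, horizontal lines the group mean and bars the SD of 3 libraries. For Nfib and Nfix the 3 sh902 libraries lie below the 3 shNT libraries; for Nfia and Nfic the groups overlap.

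**Figure D2:**
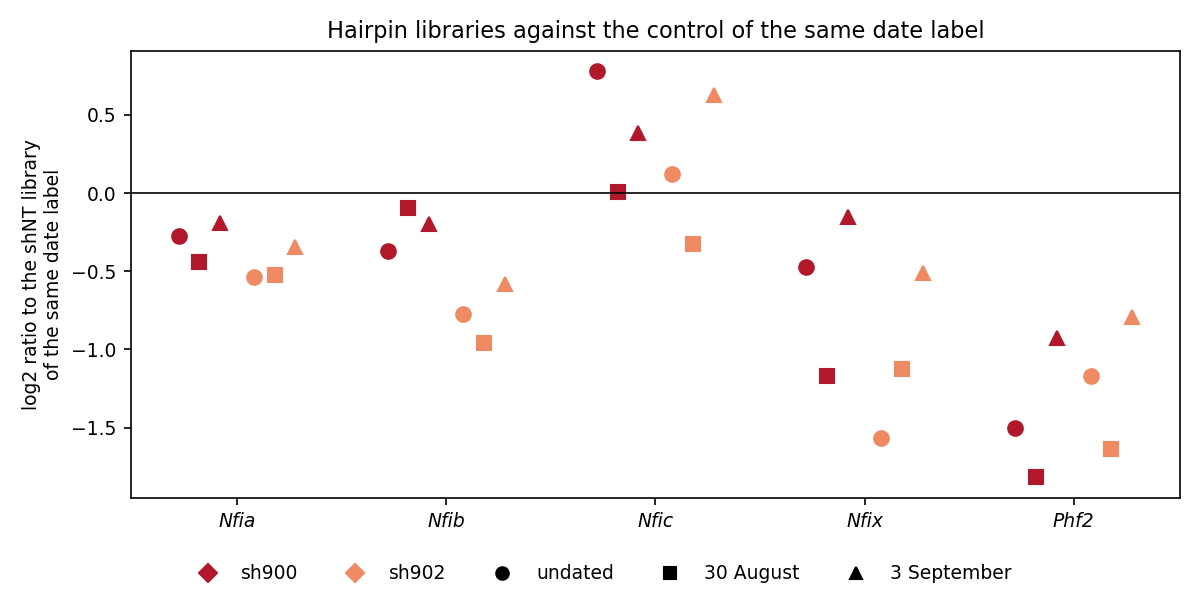
Log2 ratio of each hairpin library to the shNT library of the same date label, for the 4 NFI genes and Phf2; 0 is the control level. All 6 points lie below 0 for Nfia, Nfib, Nfix and Phf2, and 5 of 6 lie above it for Nfic.

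The second question was whether the hairpins differ from each other. Taken singly, Nfib and Nfix were called lower with sh902 in the blocked edgeR fit, and no member was called with sh900 in that fit. With sh902 and the block, Nfix had -1.06 ± 0.25 on the log2 scale (SE, edgeR adjusted p = 0.0352) and Nfib had -0.77 ± 0.15 (SE, edgeR adjusted p = 0.0199). Nfia had -0.47 ± 0.13 (SE, edgeR adjusted p = 0.0522) and Nfic had 0.14 ± 0.22 (SE, edgeR adjusted p = 0.727). With sh900 the estimates were -0.59 ± 0.25 for Nfix, -0.22 ± 0.15 for Nfib, -0.30 ± 0.13 for Nfia and 0.39 ± 0.22 for Nfic, with edgeR adjusted p between 0.166 and 0.369. Without the block, edgeR adjusted p was 0.15 for Nfib and 0.153 for Nfix with sh902 and at least 0.317 for every member with sh900. The blocked fit called 10.5% of genes with sh902 (5.12% higher, 5.39% lower) and 8.85% with sh900 (5.39% higher, 3.45% lower); the fit without the block called 0% in each, with 2776 and 2585 genes at an unadjusted p under 0.05 (848 and 786 calls in DESeq2). The sh902 groups of Nfib and Nfix lay wholly below shNT, as did 10.9% of all genes, and 3 libraries against 3 cannot give an exact permutation p below 0.1.

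The Nfib call with sh902 was lost without the undated sh902 library (-0.80, edgeR adjusted p = 0.112), without the 3 September sh902 library (-0.85, adjusted p = 0.0604) and without the undated shNT library (-0.73, adjusted p = 0.0828). The Nfix call with sh902 was kept without the undated or the 30 August sh900 library and without the 3 September shNT library. It was lost without each of the other 6 libraries, with adjusted p up to 0.176 and a change of -0.81 without the undated sh902 library. In the dated libraries alone with the block, neither was called with sh902, at -0.778 for Nfib (edgeR adjusted p = 0.246) and -0.858 for Nfix (edgeR adjusted p = 0.273). With sh900 the blocked change of Nfix was -0.326 without the 30 August sh900 library, that of Nfib -0.141 without the undated sh900 library and that of Nfic 0.18 without the undated sh900 library; in the unblocked fit Nfia was at -0.069 once the 30 August sh900 library was removed.

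The direct comparison of sh902 with sh900 did not pass the threshold for any member in edgeR; DESeq2 called Nfib without (-0.569, adjusted p = 0.0278) and with the block (-0.556, adjusted p = 0.0253). In edgeR it came closest for Nfib, at a log2 difference of -0.56 ± 0.17 (SE, edgeR adjusted p = 0.176) without the block and -0.55 ± 0.15 (SE, edgeR adjusted p = 0.0759) with it. It passed in the blocked fit once the 30 August shNT library was removed (-0.55, edgeR adjusted p = 0.0473). All 3 sh902 libraries were below all 3 sh900 libraries in Nfib, as in 11.3% of genes, and the exact permutation p was 0.1. For Nfix the blocked difference was -0.47 ± 0.25 (SE, edgeR adjusted p = 0.304), with an interval of -1.04 to 0.09 that leaves room for a difference of either sign. It was -0.18 in the dated libraries alone and -0.218 without the undated sh902 library. For Nfia it was -0.16 ± 0.13 and for Nfic -0.25 ± 0.22, with edgeR adjusted p of 0.498 and 0.565. Of all genes, the blocked fit called 4.22% between the hairpins and the fit without the block 0%, with 2532 genes at an unadjusted p under 0.05 and 1035 calls in DESeq2. Phf2 was 0.22 ± 0.19 higher on the log2 scale with sh902 than with sh900 (SE, edgeR adjusted p = 0.55 with the block), a difference within its error.

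**Figure D3:**
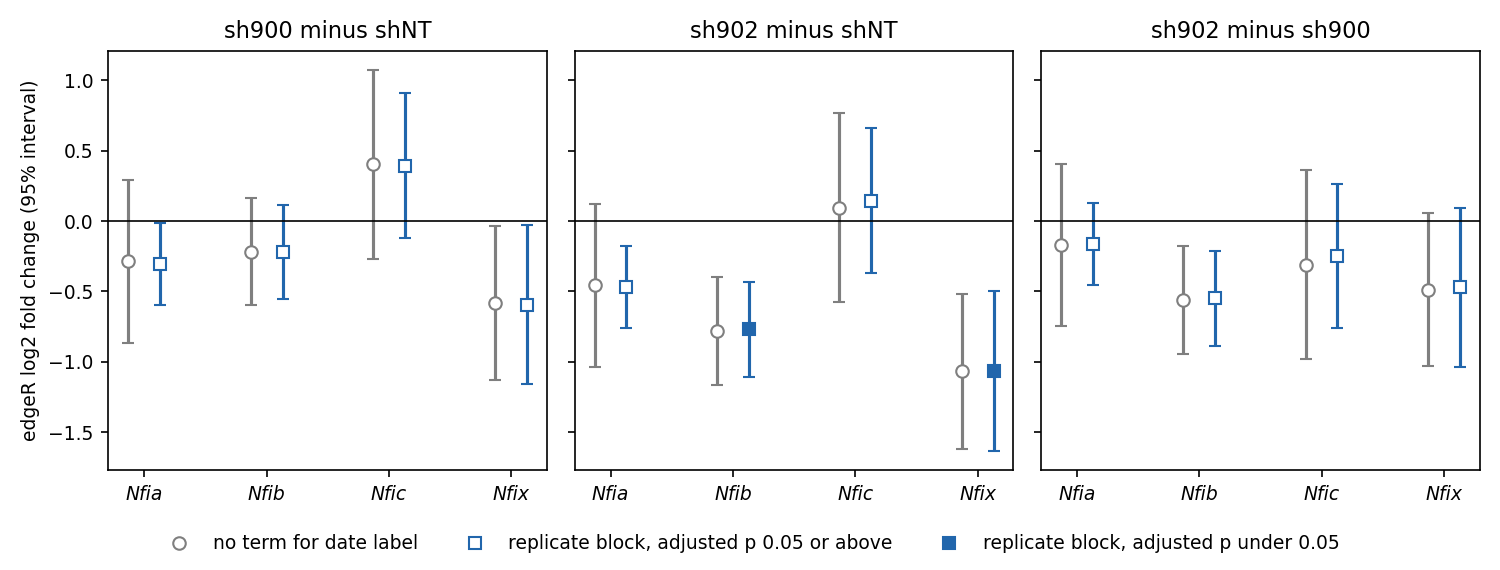
EdgeR log2 fold changes of the 4 NFI genes with 95% intervals for sh900 minus shNT, sh902 minus shNT and sh902 minus sh900, without (circles) and with (squares) the replicate block; filled squares passed an adjusted p of 0.05. The filled points are Nfib and Nfix with sh902.

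Of the members, Nfia was called between date labels. It was 0.62 ± 0.13 higher on the log2 scale in the libraries of 3 September than in those of 30 August (SE, edgeR adjusted p = 0.0128 in the fit with group and date label), set against a blocked mean hairpin change of -0.39. Each of its 3 September libraries, at 511.2, 461.1 and 585 CPM, exceeded each of its 30 August libraries, at 308, 291.8 and 419.1 CPM, as in 16.1% of all genes. Nfib differed by -0.24 ± 0.15 (SE, edgeR adjusted p = 0.274), Nfic by -0.46 ± 0.22 (SE, adjusted p = 0.181) and Nfix by 0.09 ± 0.24 (SE, adjusted p = 0.825). The fit called 20.5% of genes between these labels, 10.4% of all genes being higher on 3 September, so a call is common here. The Nfia call was lost without the 30 August sh900 library (0.57, adjusted p = 0.0743) and without the 3 September sh900 library (0.61, adjusted p = 0.0737). Summed astrocyte markers also differed, at 1863 to 4506 CPM on 3 September and 284.8 to 318 CPM on 30 August. Called higher on 3 September were 5 of 5 measured astrocyte, 2 of 2 myelin and 4 of 5 neuronal markers. So were 3 of 6 markers of oligodendrocyte precursors and 3 of 5 mesenchymal markers. Of 7 neural stem cell markers 2 were called higher and 2 lower. Of 10 proliferation genes 0 were called, at a median log2 difference of -0.89. The part of these genes in the Nfia difference was not tested.

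Levels per length allow members to be compared within a library. In CPM per kilobase of merged exons, Nfia averaged 39.5 ± 9.91 with sh900, 35.1 ± 7.83 with sh902 and 48.2 ± 8.46 with shNT (SD, n = 3 each). Nfib averaged 39 ± 6.35, 26.4 ± 1.11 and 45.3 ± 5.28 in the same order, Nfix 19.8 ± 4.99, 14.2 ± 2.67 and 29.7 ± 5.35, and Nfic 4.08 ± 1.4, 3.3 ± 0.183 and 3.09 ± 0.926. Nfia and Nfib were the highest and did not differ beyond their spread with sh900 and shNT; with sh902 their libraries ran from 26.8 to 42.3 for Nfia and from 25.4 to 27.6 for Nfib and still overlapped. Nfix came next and Nfic was lowest, without overlap, in each group. The sum of the 4 members was 102 ± 8.63 CPM per kilobase with sh900, 79 ± 9.13 with sh902 and 126 ± 8.92 with shNT. It ran from 92.8 to 109.4 with sh900, from 70.1 to 88.3 with sh902 and from 118.7 to 136.1 with shNT, with no overlap between the groups. Among single tested genes, 3.03% had all 6 hairpin libraries below all 3 controls, and 11.3% had sh902 wholly below sh900. The sum adds up the member values given above, so it is not a separate result.

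By share of the family, Nfix made up 19.2 ± 3.4% of the summed level with sh900, 18 ± 3.44% with sh902 and 23.4 ± 3.2% with shNT (SD, n = 3 each), and Nfic 4 ± 1.28%, 4.23 ± 0.462% and 2.47 ± 0.702%. Nfia made up 38.3 ± 7.2%, 44.1 ± 5.16% and 38.3 ± 7.15%, and Nfib 38.6 ± 9.73%, 33.7 ± 3.48% and 35.9 ± 3.53%. Shares of 1 library sum to the whole, so a lower share of one member raises the others. The largest single share was Nfib at 49.8% in the 30 August sh900 library. Nfib averaged 43.4% over all libraries, above Nfia, when each gene was divided by its longest transcript instead. Across the 9 libraries the highest level exceeded the lowest 2-fold for Nfia, 1.95-fold for Nfib, 2.64-fold for Nfic and 2.96-fold for Nfix.

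**Figure D4:**
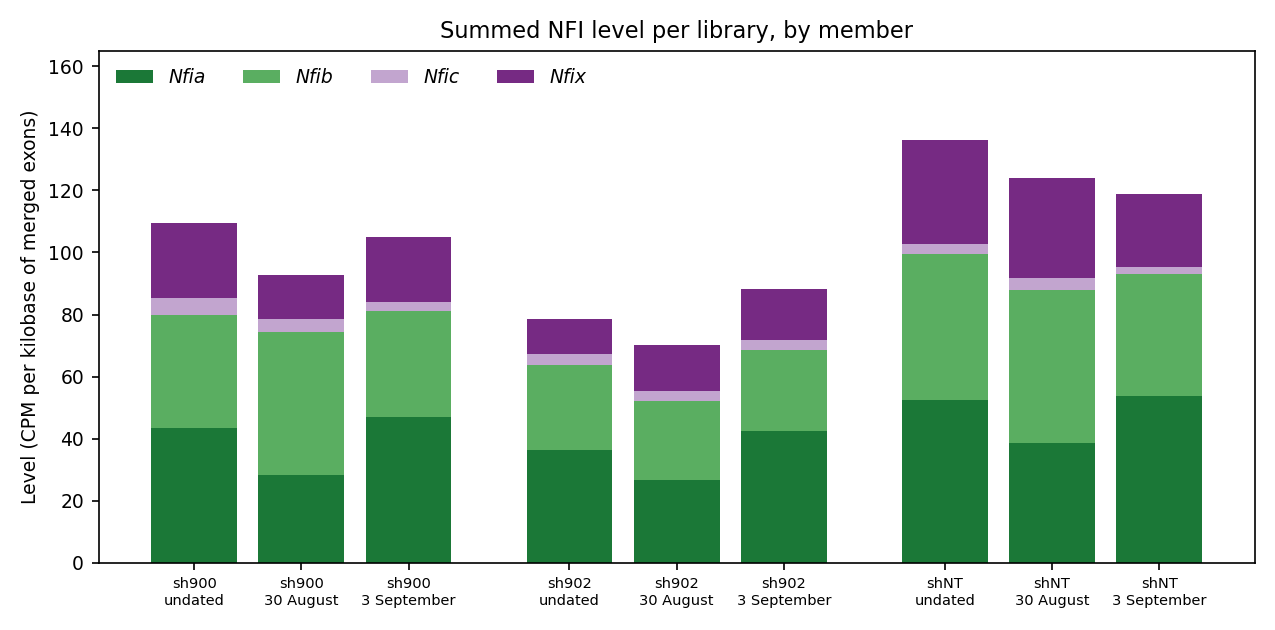
Summed level of the 4 NFI genes per library in CPM per kilobase of merged exons, stacked by member. The bars are lowest with sh902, at 70.1 to 88.3, and highest with shNT, at 118.7 to 136.1.

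Across the 9 libraries the members did not all move together. Pearson's r of log2 CPM was 0.69 between Nfib and Nfix, 0.64 between Nfia and Nfix and 0.28 between Nfia and Nfib, and it lay between -0.35 and 0.14 for the 3 pairs with Nfic. These values describe libraries that share treatments and date labels. Of 12501 genes with a mean of at least 1 CPM, those most like Nfia were Fmo1 (r = 0.992), which encodes a flavin-containing monooxygenase, Rnf122 (0.986) and the kinase gene Map3k1 (0.985). Those most like Nfib were Tifa, an adaptor of TRAF signalling (0.98), Tbc1d22b (0.962) and the glycosyltransferase gene Galnt10 (0.959). Those most like Nfic were the microtubule-severing gene Fign (0.974), the smooth muscle protein gene Smtn (0.955) and the ephrin receptor gene Ephb4 (0.943). Those most like Nfix were Hepacam, an astroglial adhesion molecule (0.911), the Polycomb gene Phc1 (0.904) and Rere, a nuclear receptor coregulator (0.903). No gene printed for a member recurred for another. They are the highest of 12501 correlations over 9 libraries, so high r is in part a product of the selection. Fmo1 averaged 2.12 CPM.

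Genes known to act upstream of or with NFI factors were followed as a list of 12, all measured. In the blocked fit of the mean, 1 was called higher and 3 lower (of all genes, 6.08% and 5.59%), with a median log2 fold change of -0.41 against -0.02 for all genes; without the block 0 were called and the median was -0.42 against -0.03. The gene called higher was Atf3, a stress-induced transcription factor reported, with Nfia and Runx2, to act in mouse astrogliogenesis. It had 11.29, 7.526 and 4.585 CPM with sh900, 2.315, 6.11 and 0.83 CPM with sh902, and 1.06, 1.077 and 0.649 CPM with shNT. Its blocked log2 fold change was 2.28 ± 0.44 (SE, edgeR adjusted p = 0.0183), lost without the undated sh900 (2.11, adjusted p = 0.0519) or the undated shNT library (2.26, adjusted p = 0.112).

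The 3 called lower were Pax6, the radial glial factor, Rbpj, the DNA-binding effector of Notch, and Sox10, of the oligodendrocyte lineage. Pax6 had 29.97, 33.43 and 53.73 CPM with sh900, 35.52, 43.62 and 42.94 CPM with sh902, and 72.38, 47.49 and 83.48 CPM with shNT, a blocked log2 change of -0.76 ± 0.18 (SE, edgeR adjusted p = 0.0319). Rbpj had 45.54, 48.44 and 44.2 CPM with sh900, 38.17, 33.45 and 43.69 CPM with sh902, and 62, 50.37 and 64.83 CPM with shNT, a change of -0.48 ± 0.12 (SE, adjusted p = 0.041). All 6 hairpin libraries were below all 3 controls in Rbpj, as in 3.03% of genes. Sox10 spanned 0.231 to 73.1 CPM within the shNT group alone and had a change of -1.99 ± 0.46 (SE, adjusted p = 0.0405). With 1 library left out in turn, these blocked calls were kept in 3 of 9 fits for Pax6 and in 2 of 9 each for Rbpj and Sox10; adjusted p was highest without the undated shNT library, at 0.192, 0.176 and 0.225. With sh900 alone the blocked fit called Atf3 higher and 0 genes lower, where 5.39% and 3.45% of all genes were. With sh902 alone the blocked fit called 5.12% of all genes higher and 5.39% lower. Of the list, 1 gene was called higher, Runx2 (1.03 ± 0.27, SE, edgeR adjusted p = 0.0466), and 4 lower. These were Rbpj (-0.62 ± 0.14), Sox9 (-0.75 ± 0.18), Sox10 (-2.47 ± 0.60) and Stat3, the effector of astrogliogenic cytokines (-0.66 ± 0.17). Runx2 and Stat3 are named after their values were seen. Runx2 was low and overlapped the control, at 2.24 to 7.904 CPM with sh902 and 0.8013 to 4.96 CPM with shNT. Without the block 0 genes of the list were called with either hairpin.

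Genes reported to be activated by NFI factors in mouse astroglia or neural progenitors formed a list of 9. In the blocked fit of the mean 1 was called lower (5.59% of all genes were) and 0 higher, with a median of -0.81 against -0.02 for all genes; without the block 0 were called and the median was -0.90. The gene called was Aqp4, the astrocyte water channel, at 69.17, 5.427 and 538.3 CPM with sh900, 56.29, 12.09 and 291.5 CPM with sh902, and 645.3, 46.18 and 1514 CPM with shNT. It lay below the same-label control in every hairpin library and changed by -2.59 ± 0.38 (SE, edgeR adjusted p = 0.0127). The call was lost without the undated sh900 (-2.485, adjusted p = 0.0555) or the undated shNT library (-2.13, adjusted p = 0.0751). Mmd2 and Apcdd1, which have been described downstream of Nfia and Sox9 in early mouse gliogenesis, had blocked changes of -1.70 ± 0.43 (SE, edgeR adjusted p = 0.058) and -1.95 ± 0.58 (SE, edgeR adjusted p = 0.0875). The glutamate transporter gene Slc1a3 had -0.44 ± 0.15 (SE, edgeR adjusted p = 0.097). This list followed the date labels: 5 of its 9 genes were called higher on 3 September than on 30 August, as were 10.4% of all genes, with a median log2 difference of 1.23. They were Aqp4 (5.41 ± 0.54), Gfap (5.51 ± 1.15), Mmd2 (3.70 ± 0.56), Aldh1l1 (1.89 ± 0.22) and S100b (1.23 ± 0.34), of which Gfap, Aldh1l1 and S100b are named after their values were seen. The summed astrocyte markers, some of which are on this list, were 318 to 2783 CPM with sh900, 303.8 to 1863 CPM with sh902 and 284.8 to 4506 CPM with shNT; their part in these values was not tested.

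Of 4 genes reported to be repressed by NFI factors, 0 were called for the mean in either fit. Hes1, a Notch target that maintains progenitors, had 97.86, 39.97 and 34.55 CPM with sh900, 60.49, 24.05 and 32.49 CPM with sh902, and 27.07, 26.88 and 16.9 CPM with shNT. Its blocked log2 fold change was 0.88 ± 0.24 for the mean (SE, edgeR adjusted p = 0.057) and 1.13 ± 0.28 with sh900 (SE, edgeR adjusted p = 0.0448). Sox9, the glial factor that also acts upstream of Nfia, had 198, 174.2 and 191.4 CPM with sh900, 122.4, 150.2 and 163.6 CPM with sh902, and 289.5, 181.6 and 270.7 CPM with shNT. It changed by -0.56 ± 0.16 for the mean (SE, edgeR adjusted p = 0.0521) and by -0.75 ± 0.18 with sh902 (SE, edgeR adjusted p = 0.0404). Bbx had 0.42 ± 0.12 (SE, adjusted p = 0.0572), with a call with sh902 alone at 0.59 ± 0.14 (SE, edgeR adjusted p = 0.0322), and the Polycomb methyltransferase gene Ezh2 had -0.49 ± 0.18 (SE, adjusted p = 0.118). By single hairpin the blocked fit called 1 of the 4 higher with sh900, and 1 higher and 1 lower with sh902. Of all genes it called 5.39% higher with sh900, and 5.12% higher and 5.39% lower with sh902. Without the block 0 of the 4 were called with either hairpin.

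Proliferation genes were set beside the family because NFI factors are tied to exit from the cell cycle. Of 10 such genes 0 were called for the mean in either fit, and their median changed sign, at -0.25 without the block and 0.12 with it. Mki67, a marker of cycling cells, had 413.3, 194 and 326.2 CPM with sh900, 523.4, 298.6 and 454.9 CPM with sh902, and 291.4, 868.5 and 60.13 CPM with shNT. Both hairpin libraries lay below the control on 30 August and above it at the other labels, and Mcm2, Mcm5 and Pcna did the same. Nfia, Nfib and Nfix stayed below the control at all 3 labels, as did 12% of all tested genes. A link between the NFI values and proliferation was not tested.

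**Figure D5:**
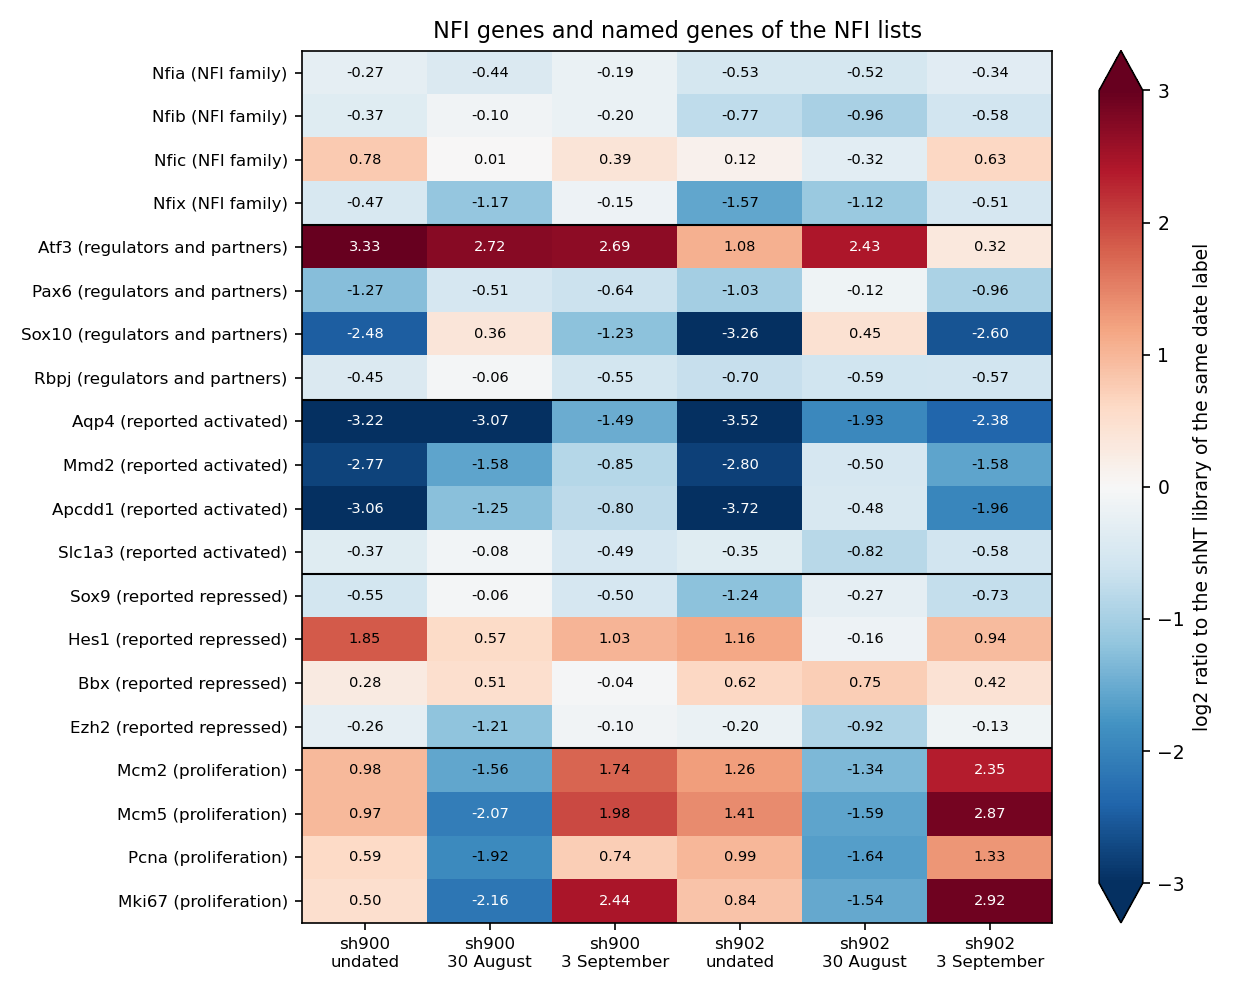
Log2 ratio of each hairpin library to the shNT library of the same date label for the NFI genes and 16 named genes of 4 lists; the colour scale ends at 3 in either direction and each cell prints its value. Proliferation genes change sign on 30 August. Nfia, Nfib and Nfix are negative in every column, as are 12% of all tested genes.

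Promoter windows from RefSeq on GRCm38, 250 bases before to 50 after each start, were searched for TTGGC on either strand. It occurs in 46.7% of the 32851 mouse windows, and the full palindrome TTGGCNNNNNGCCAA in 0.0365%. Windows were available for 8 of the 13 reported targets, and 5 held a TTGGC. Of the members, 3 of 4 Nfix windows held one and those of Nfia and Nfic did not. Nfib had no window available. The Nfia window, at 97581693 to 97581992, lies before the gene span given above. The Nfic window, at 81427124 to 81427423, lies inside its gene, as do those of Nfix. The outermost starts of those gene spans were therefore not searched. A match in these windows describes letters and not a bound site. The following are shown because these genes are a family member and the reported targets Fabp7 and Mmd2. The strand is that of the gene, and capitals mark a TTGGC read on that strand. The first Nfix stretch also holds a match on the other strand, GCCAA, which is left in lower case.
Nfix, chr8:84772856-84772884, minus strand: ggcagccaaacaTTGGCcagtccggacaa
Nfix, chr8:84775987-84776015, minus strand: ggatcttttgttTTGGCtcaccccaggcg
Fabp7, chr10:57784856-57784884, plus strand: tcattcaaatgaTTGGCtttttgcccgct
Mmd2, chr5:142608841-142608869, minus strand: ccagccgggcgaTTGGCagcgtgcgccca
Fabp7, the brain fatty acid binding protein of radial glia, had 1681, 2389 and 1365 CPM with sh900, 1129, 811.2 and 1117 CPM with sh902, and 1261, 1499 and 1177 CPM with shNT, and its blocked mean change of 0.06 ± 0.20 was within its error (SE, edgeR adjusted p = 0.898). Mmd2 had 57.98, 14.26 and 339.9 CPM with sh900, 56.99, 30.16 and 204.4 CPM with sh902, and 397.3, 42.68 and 611.7 CPM with shNT.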

How the data were processed

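The deposited table holds RSEM estimated counts per gene from the authors for 9 libraries. Per the submitters' processing notes, FastQC, cutadapt, Trimmomatic 0.36, STAR 2.5.0a and RSEM were used with GRCm38; the annotation release and strand setting were not given in the sources used here. Rounding to whole numbers changed 0 values. Symbols came from GENCODE M21 (GRCm38), with 54079 identifiers matched and 153 not.

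Analyses ran in R 4.3.3. All 9 libraries entered the quasi-likelihood F test of edgeR 4.0.16, with 3 groups, TMM factors and the default expression filter (17602 genes, 99.9% of counts), with Benjamini-Hochberg adjustment over all tested genes and a threshold of 0.05. SE is the size of a log2 fold change over the root of its F. Log2 CPM used a prior count of 2. The fit with date label as replicate block is the first alternative. It rests on the titles: deviations from group means correlated at 0.4 to 0.63 within 30 August, 0.46 to 0.64 within 3 September, 0.08 to 0.4 among undated libraries and -0.66 to 0.3 between labels. The dated libraries were treated as paired, the undated ones as possibly so, and both fits are printed. Within-group chi-square tests showed no library deposited again (lowest value per degree of freedom 56.5). The scripts were tested on simulated data. Alternatives were DESeq2 1.42.0, limma-voom (limma 3.58.1), other scaling, filters and library subsets, and each library left out.

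Genes named besides the members and Phf2 are up to 4 per list with the smallest blocked p, the 3 most similar to each member and overlapping genes; Fabp7 was added for its promoter after its values were seen. The members and lists were chosen with earlier results of these data known.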

Additional observations from a re-analysis of the deposited data

Results flagged for a closer look

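Ratios of hairpin to control libraries had opposite signs at different date labels for several named genes. These differences were not tested. Values are mean log2 ratios of both hairpins to the same-label shNT library, and at each label both hairpin libraries lay on the same side. Both ratios at a label share a single shNT library, so their common sign is not independent. Mki67 spanned 60.13 to 868.5 CPM within shNT, against 194 to 413.3 CPM with sh900 and 298.6 to 523.4 CPM with sh902. Mcm2 stood at 1.12 (undated), -1.45 (30 August) and 2.05 (3 September), Mcm5 at 1.19, -1.83 and 2.43, Pcna at 0.79, -1.78 and 1.03, and Mki67 at 0.67, -1.85 and 2.68 in the same order. Smtn, one of the genes most like Nfic, stood at 1.21, -0.68 and 2.07. Sox10 stood at -2.87, 0.4 and -1.91. On 30 August it was near the floor, at 0.317 CPM with sh900, 0.342 CPM with sh902 and 0.231 CPM with shNT, so its sign there carries little weight. Nfia, Nfib and Nfix were below the same-label control in all 6 hairpin libraries, as were 12% of all tested genes. Nfic was below it in the 30 August sh902 library alone.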

How the results depend on the processing

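The direction of every NFI value was kept under the alternatives that left no single library out: of 188 such values 172 kept their side of the threshold, 16 passed it newly and 0 reversed. All 16 came from the replicate block or DESeq2. For the mean of both hairpins the log2 fold change of Nfib was -0.494 with the block, -0.498 in DESeq2 and -0.494 in DESeq2 with the block, and that of Nfix -0.828, -0.825 and -0.829. With sh902 Nfib had -0.768, -0.783 and -0.772 and Nfix -1.064, -1.073 and -1.069. DESeq2 with the block also called Nfia, at -0.386 for the mean (adjusted p = 0.0277) and -0.472 with sh902 (adjusted p = 0.0192). DESeq2 called Nfib between sh902 and sh900 without (-0.569, adjusted p = 0.0278) and with the block (-0.556, adjusted p = 0.0253). Phf2 became called at -1.323, -1.281 and -1.324 for the mean, at -1.433, -1.385 and -1.429 with sh900 and at -1.214, -1.176 and -1.219 with sh902, and at -1.326 with sh900 without a low-count filter. The mean Nfib share of the family was 43.4% by longest transcript.

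With each library left out in turn, with and without the block, the mean change ran from -0.594 to -0.421 for Nfib, -1.065 to -0.664 for Nfix, 0.033 to 0.503 for Nfic and -1.549 to -1.1 for Phf2. With sh902 it ran from -0.872 to -0.623 for Nfib, -1.304 to -0.813 for Nfix, -0.121 to 0.375 for Nfic and -1.438 to -0.958 for Phf2, and with sh900 from -0.826 to -0.326 for Nfix, -0.335 to -0.14 for Nfib, -0.433 to -0.069 for Nfia, 0.126 to 0.631 for Nfic and -1.66 to -1.193 for Phf2. Between the hairpins it ran from -0.366 to 0.01 for Nfia, -0.633 to -0.405 for Nfib and -0.719 to -0.218 for Nfix, and between the dates from 0.573 to 0.719 for Nfia and -0.151 to 0.351 for Nfix. For the proliferation genes these ranges were -0.45 to 1.563 (Mcm2), -0.609 to 1.766 (Mcm5), -0.709 to 0.916 (Pcna) and -0.792 to 1.563 (Mki67), and for Smtn -0.078 to 1.647. Signs also turned for Mcm2 in the dated libraries alone (-0.47, and -0.094 with the block), for Smtn there (-0.117), for Mcm5 with the block (0.291), in DESeq2 with the block (0.299) and in limma-voom (0.605), for Mki67 likewise (0.137, 0.137 and 0.499), and for Pcna in limma-voom (0.011). The cause was not tested.

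Genes called for the mean, sh900, sh902 and sh902 minus sh900 numbered 0 each without the block. They were 2054, 1557, 1850 and 743 with it, 755, 786, 848 and 1035 in DESeq2, 3014, 2590, 2833 and 1783 in DESeq2 with the block, and 8, 58, 35 and 139 without a filter. Between sh902 and sh900 a minimum of 1 CPM gave 57 and limma-voom 1; the dated libraries with the block gave 1 for the mean and 4 for sh900. Leaving out single libraries gave 257 to 3637 blocked calls for the mean. Nfic had the fewest counts of the members, 365 in its lowest library.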
